A study of Mus musculus with 18 samples.

Results

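The 7 genes described here, Pax6, Zfp521, Sox1, Gbx2, Irx3, Lhx2 and Dbx1, encode transcription factors of early neural progenitors. They were taken by gene symbol from a table of 10965 genes and were followed over both genotypes and all days of the study. RNA was sequenced from mouse embryonic stem cells (mESCs, strain CD1 on the labels) in the ground state (d0) and on d4 and d6 of neural differentiation (ND). Ctrl cells carried floxed Zeb2 alleles (Zeb2 fl/fl) and Zeb2 KO cells had lost them (Zeb2 -/-). Each genotype and day had 3 libraries, which makes 18 in all. On d0 all cells grew in 2i + LIF, that is 0.4 µM PD0325901, 1 µM CHIR99021 and 1000 U/ml LIF on the labels. They were then grown as embryoid bodies in medium with 15% serum. On d4 they were moved to N2B27 medium with 500 nM retinoic acid (RA). The labels name the d4 cells multipotent progenitors and the d6 cells neural progenitors. The study's text describes the libraries of a stage as independent experiments. Whether the d4 cells were taken before or after the medium with RA was added, and which ESC lines were sequenced, are not given in the sources used here.

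During neural induction, SoxB1 proteins such as Sox1 mark the first neuroectoderm, and Zfp521 is a zinc finger protein that promotes the entry of ESCs into the neural lineage. Pax6 acts in progenitors of the forebrain, eye, hindbrain and spinal cord. The neural plate is then divided along the head-to-tail axis and the back-to-belly axis by factors that often repress each other. Lhx2 acts in the forebrain and eye field and Gbx2 in the anterior hindbrain. Irx3 acts behind the forebrain and in the intermediate and ventral neural tube, and Dbx1 in the progenitors of V0 interneurons, near the boundary between the dorsal and the ventral tube. RA gives progenitors a posterior identity and promotes genes of the intermediate neural tube.

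The promoters of 4 members, Dbx1, Pax6, Gbx2 and Lhx2, are shown first. The study searched promoters for binding motifs of Zeb2, CACCT and the E-box form CACCTG that contains it. That search was for both motifs close together in a longer window around the start site. Here single matches in a short window are described, which is another search. RefSeq sequences of GRCm38.p6 held 8 promoters of 6 of the 7 genes, and the 250 bases before each start site were searched on both strands. Each sequence runs 5′ to 3′ on the strand of its gene, and capitals mark CACCT or its complement AGGTG. Dbx1 at chr7:49636836-49637085 (minus strand) and the upstream Pax6 promoter at chr2:105668646-105668895 (plus strand) held no match. Gbx2 at chr1:89931177-89931426 (minus strand) held 1 match that begins 10 bases before the start, and the upstream Lhx2 promoter at chr2:38339031-38339280 (plus strand) held 1 match that begins 235 bases before it.
Dbx1: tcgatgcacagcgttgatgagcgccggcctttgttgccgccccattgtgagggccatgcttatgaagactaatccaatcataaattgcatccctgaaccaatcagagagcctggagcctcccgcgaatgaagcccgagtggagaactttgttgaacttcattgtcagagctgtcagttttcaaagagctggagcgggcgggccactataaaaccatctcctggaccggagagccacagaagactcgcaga
Pax6: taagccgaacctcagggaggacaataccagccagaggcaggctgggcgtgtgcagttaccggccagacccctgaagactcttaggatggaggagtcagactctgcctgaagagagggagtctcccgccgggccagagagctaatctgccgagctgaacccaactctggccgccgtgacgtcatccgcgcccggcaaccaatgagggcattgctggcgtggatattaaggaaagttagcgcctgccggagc
Gbx2: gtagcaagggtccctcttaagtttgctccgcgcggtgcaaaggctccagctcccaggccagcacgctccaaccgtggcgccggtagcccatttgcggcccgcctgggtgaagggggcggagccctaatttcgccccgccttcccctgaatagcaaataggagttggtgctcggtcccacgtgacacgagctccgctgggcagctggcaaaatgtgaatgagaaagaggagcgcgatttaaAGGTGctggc
Lhx2: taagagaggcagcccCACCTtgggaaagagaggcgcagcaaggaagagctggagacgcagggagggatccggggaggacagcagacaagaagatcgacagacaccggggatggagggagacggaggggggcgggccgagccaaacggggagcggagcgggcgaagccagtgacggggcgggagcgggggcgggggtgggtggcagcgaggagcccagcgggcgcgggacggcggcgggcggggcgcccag

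Irx3, Sox1 and the second Lhx2 promoter also held 1 match each, at 133, 49 and 125 bases before the RefSeq start, and the second Pax6 promoter held none. For Sox1, Irx3 and the second Lhx2 promoter that start lies inside the GENCODE bounds of the gene given below, and so does the match. CACCT was thus present in 5 of the 8 promoters, against 46% of 32851 promoters of the same length, and CACCTG in 0 of the 8, against 17.2%. A match is a stretch of letters and not a site that Zeb2 was shown to bind. The number of matches in so few windows says nothing about regulation by Zeb2.

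All 7 genes lie on autosomes of GRCm38 and are annotated as protein coding in GENCODE M21. Pax6 spans chr2:105668900-105697364 and Lhx2 chr2:38339281-38369733, both on the plus strand. Sox1 lies at chr8:12395295-12400126 on the plus strand, and Irx3 at chr8:91798525-91802067 on the minus strand. Zfp521 spans chr18:13687013-13972787, Gbx2 chr1:89927956-89931179 and Dbx1 chr7:49631499-49636849, all on the minus strand. Another annotated gene overlaps each of them except Dbx1, such as Pax6os1 for Pax6, Sox1ot for Sox1 and Irx3os for Irx3. No source used here says that reads were counted by strand, so reads of such partners cannot be told apart from those of the 6 genes.

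The labels were first checked against the data. Zeb2 itself was at 0.123 to 0.138 TPM (a level corrected for gene length and depth, scaled to a fixed total of transcripts) in the Ctrl d0 libraries, at 1.23 to 1.47 TPM on d4 and at 7.53 to 7.81 TPM on d6. The KO libraries were below these ranges on each day, and on d6 held 0.594 to 0.733 TPM, or 8.89% of the Ctrl mean. Between 9622622 and 15617675 reads fell on the analysed genes of a library. Pou5f1, which keeps cells pluripotent, was at 1047 to 1171 TPM in all d0 libraries and fell to between 93.0 and 114 TPM in Ctrl d6. In KO d6 it was at 561 to 718 TPM. The progenitor gene Nes was at 87.3 to 96.9 TPM in Ctrl d6 and at 42.2 to 55.6 TPM in KO d6, and Hes5, a Notch target of neural progenitors, at 8.59 to 16.8 TPM and 0.388 to 1.11 TPM. By these genes the label neural progenitor was matched by the Ctrl libraries, while the KO libraries with this label held more Pou5f1 and less of both progenitor markers. Genes were in the table only with at least 5 TPM in 3 samples. Hes5 reached that level only in the Ctrl d6 libraries, so the filter favoured its lower level in KO d6. Sox3 was also lower in KO d6 (38.4 to 69.1 TPM, against 114 to 188 TPM). Sox2 was alike, at 489 to 585 TPM in KO d6 and 489 to 569 TPM in Ctrl d6. Nanog, Zfp42 and Esrrb were higher in KO d6, but Klf4 was lower (4.89 to 6.43 TPM, against 10.7 to 11.7 TPM). Within KO cells Nes was at 23.3 to 25.2 TPM on d0, below its d6 level.

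In Ctrl cells, all 7 genes were higher on d6 than on d0, by 0.81 to 8.24 on the log2(TPM + 1) scale. Here and below, a gene is called higher or lower when its Benjamini-Hochberg adjusted p, from limma over all 10965 genes, was below 0.01. In this comparison 45.8% of all genes were called higher, and the median difference was 3.61 for the 7 genes and 0.26 for all genes. With median-ratio rescaling, which put the median of all genes between -0.028 and 0.047 in each comparison, 35.5% of all genes were called higher. The call of Gbx2 was then lost, as it was with the chromosome medians subtracted, and quantile normalization left 5 of the 7 genes, without Gbx2 and Lhx2. In Zeb2 KO cells, 2 of the 7 genes, Irx3 and Sox1, were higher on d6 than on d0 (40.3% of all genes), and Lhx2 was lower (27.4%). With median-ratio rescaling 33.8% of all genes were called higher and 34.1% lower, and Gbx2 was also called lower (-0.77). With quantile normalization Irx3 alone was called higher, Sox1 was at 0.28 (adjusted p = 0.0843), and Pax6, Gbx2 and Lhx2 were called lower. The number of factors called lower in KO cells and the size of the median difference of the 7 grew with the days. Single genes did not all follow, as Gbx2 was at -1.99 on d4 and -1.29 on d6. On d0, 1 of 7 genes was called lower in KO cells, against 16.4% of all genes, and 0 were called higher, against 10.6%. On d4, 5 of 7 were lower (32.7%), and on d6 all 7 were lower (34.3%), with 0 higher on either day (12.7% and 17.9%). The table held only genes with at least 5 TPM in 3 samples. Lhx2 and Dbx1 reached that level only in the Ctrl d6 libraries. Their lower level in KO d6 was therefore nearly fixed by the filter and is no independent result. The calls over all genes depended on the scaling. They were 3591 lower and 1397 higher on d4 and 3764 lower and 1967 higher on d6, but with median-ratio rescaling 2335 lower (21.3%) and 2300 higher on d4 and 2811 lower (25.6%) and 2804 higher on d6. The counts of 5 and 7 lower factors did not change with it. With quantile normalization the gene called on d0 was not Zfp521, which lost its lower call, but Pax6, which was called higher. The median difference of the 7 genes was -0.02, -1.39 and -2.77 on the 3 days, beside -0.07, -0.16 and -0.14 for all genes. In these bulk libraries, fewer cells that express a gene and less RNA of it per cell cannot be told apart. On d6 every KO library was below every Ctrl library for each of the 7 genes. On d4 this held for all except Dbx1. On d0 the groups of 3 genes, Pax6, Zfp521 and Sox1, did not overlap. Groups without overlap, in either direction, were found for 51.5% of all genes on d0, 65.7% on d4 and 63.7% on d6.

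**Figure D1:**
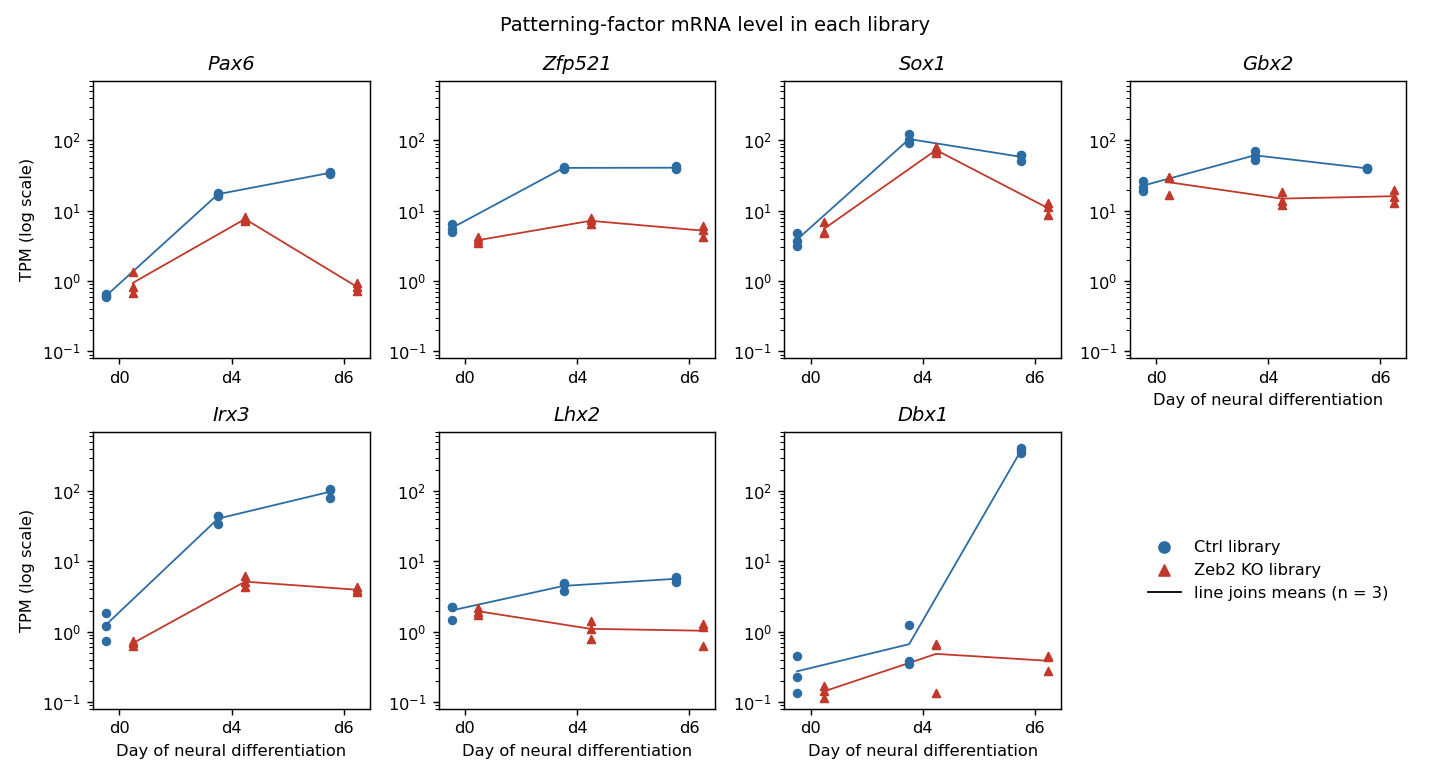
TPM (log axis) of each of the 7 factors in every library by day of ND, with Ctrl libraries as blue circles, Zeb2 KO libraries as red triangles and lines through the means of 3 libraries. Dbx1 leaves the floor only in Ctrl d6, at 351 to 417 TPM, whereas Sox1 and Pax6 rise in KO cells on d4 and are lower again on d6.

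Sox1, a SoxB1 factor and one of the earliest markers of neuroectoderm, had the highest level of the 7 on d4. On d0 the Ctrl libraries held 3.16, 3.71 and 4.78 TPM and the KO libraries 4.81, 6.84 and 4.95 TPM. On d4 they held 92.0, 99.99 and 122 TPM in Ctrl and 66.6, 72.9 and 79.8 TPM in KO. On d6 they held 62.3, 61.4 and 51.4 TPM in Ctrl and 12.8, 11.3 and 8.56 TPM in KO. KO cells thus made a large part of the first rise and then lost it. The gain from d0 to d4 in KO was 67.1% of the Ctrl gain, and the level on d6 was 18.6% of Ctrl. In KO cells Sox1 was higher on d4 than on d0 by 3.51 ± 0.16 (log2 difference ± SE, n = 3 libraries per group, adjusted p = 2.43e-11) and fell by 2.66 from d4 to d6 (SE 0.16, adjusted p = 3.34e-09). In Ctrl cells the rise was 4.44 ± 0.16 (adjusted p = 1.14e-12), and it then fell by 0.83 (SE 0.16, adjusted p = 0.000394). The KO minus Ctrl difference was -0.51 ± 0.16 on d4 (adjusted p = 0.0136, not called, but called in 5 of 28 other settings) and -2.33 ± 0.16 on d6 (adjusted p = 4.06e-09).

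Sox1 and Irx3 lie on chromosome 8, whose 668 analysed genes had a median KO minus Ctrl difference of 0.33 on d0, -0.20 on d4 and -0.15 on d6. The Sox1 difference on d0 was 0.42 ± 0.16 (adjusted p = 0.0498, not called). With the median of each chromosome subtracted in every library it was 0.07, and its d6 value was -2.16. The Irx3 difference on d0 was -0.39 ± 0.17 (adjusted p = 0.0848), and -0.74 with the medians subtracted, where it was called lower. The part of the chromosome in the results of d0 was not tested further.

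Pax6, a paired-box factor of neural and eye progenitors, followed the same course in KO cells but from a level near the floor. It had 0.589, 0.646 and 0.609 TPM in Ctrl d0 and 0.676, 0.824 and 1.33 TPM in KO d0. On d4 it had 17.6, 16.4 and 17.7 TPM in Ctrl and 7.51, 8.25 and 7.11 TPM in KO. On d6 it had 33.8, 35.1 and 35.0 TPM in Ctrl and 0.934, 0.827 and 0.715 TPM in KO. The KO libraries of d6 overlapped those of d0, and the difference between these days, -0.08, was not called. With quantile normalization it was -0.87 and called lower (adjusted p = 4.95e-06). The d4 gain was 40.2% of the gain in Ctrl cells, and the d6 level was 2.38% of Ctrl, with 61 to 76 reads per KO library and 2369 to 3312 per Ctrl library. Within KO, Pax6 rose by 2.16 ± 0.12 from d0 to d4 (adjusted p = 2.15e-10) and fell by 2.24 from d4 to d6 (SE 0.12, adjusted p = 1.17e-09). Within Ctrl it rose in both steps, by 3.50 ± 0.12 (adjusted p = 6.78e-13) and 0.97 ± 0.12 (adjusted p = 5.20e-06). The KO minus Ctrl difference was 0.25 ± 0.12 on d0 (adjusted p = 0.114, but 0.49 and called higher with quantile normalization, adjusted p = 0.00415), -1.08 ± 0.12 on d4 (adjusted p = 2.12e-06) and -4.29 ± 0.12 on d6 (adjusted p = 9.65e-14). It ranked as number 60 from the lowest of 10965 genes on d6.

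Zfp521, the zinc finger factor of neural entry, reached no more than 7.85 TPM in a KO library on any day. Ctrl libraries had 5.55, 4.99 and 6.43 TPM on d0, 39.5, 40.2 and 42.3 TPM on d4, and 39.4, 40.5 and 42.9 TPM on d6. KO libraries had 4.16, 3.87 and 3.43 TPM on d0, 6.47, 7.27 and 7.85 TPM on d4, and 4.25, 5.26 and 6.14 TPM on d6. In Ctrl cells the level was reached on d4 (2.65 ± 0.12, adjusted p = 1.27e-11) and the d4 and d6 libraries overlapped. In KO cells Zfp521 rose by 0.76 ± 0.12 on d4 (adjusted p = 2.97e-05), which was 9.63% of the Ctrl gain in TPM. With quantile normalization this rise was 0.28 and not called. The later fall in KO, of 0.41 (SE 0.12, adjusted p = 0.00900), lay at the threshold and was lost in 17 of 28 other settings. The KO minus Ctrl difference was -2.35 ± 0.12 on d4 (adjusted p = 2.65e-10) and -2.77 ± 0.12 on d6 (adjusted p = 1.45e-11). Zfp521 was also the gene called lower on d0, by -0.46 ± 0.12 (adjusted p = 0.00568). The call did not hold in 9 of 28 other settings, among them 4 fits that lack a library, namely Ctrl d0 replicate 1 or 3 or KO d0 replicate 2 or 3. Over these 28 settings the d0 difference was between -0.55 and -0.27.

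**Figure D2:**
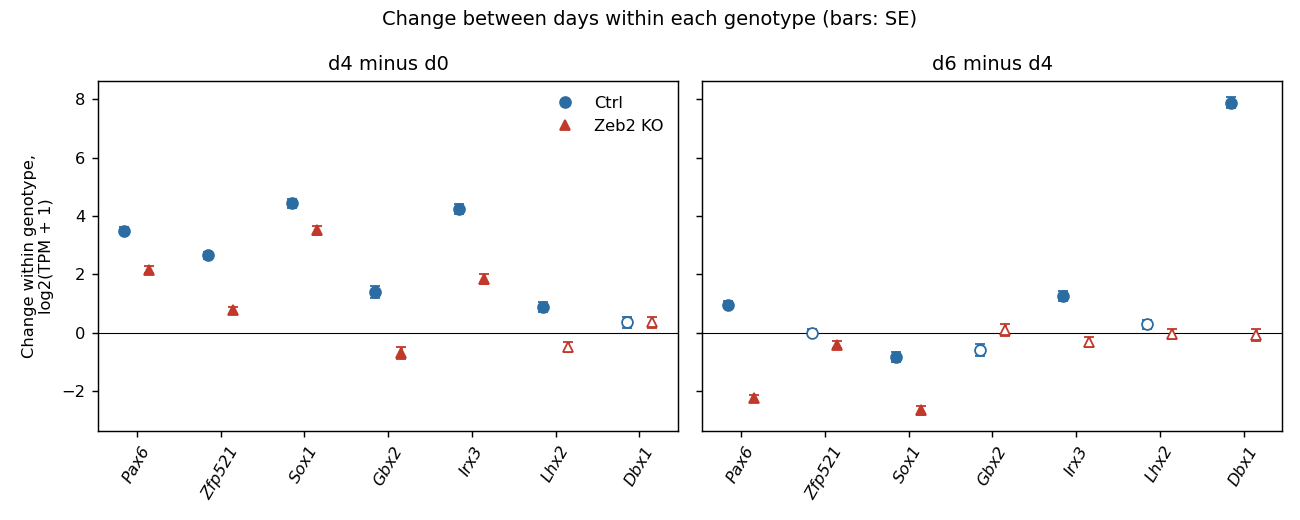
Change of each factor on the log2(TPM + 1) scale from d0 to d4 (left) and from d4 to d6 (right), with Ctrl as blue circles and Zeb2 KO as red triangles. Bars are the SE of the limma fit, and filled symbols have an adjusted p below 0.01. Sox1 and Pax6 in KO cells change by 3.51 and 2.16 in the first step and by -2.66 and -2.24 in the second.

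Sox1, Pax6 and Zfp521 were the 3 members with a called rise from d0 to d4 and a called fall from d4 to d6 in KO cells, a course shared by 6.23% of all genes. Among the 4945 genes that rose from d0 to d4 in Ctrl cells, 11.6% had it. From d0 to d4, 4 of the 7 genes rose in KO cells (35.8% of all genes) and Gbx2 fell (20.9%), and in Ctrl cells 6 rose (45.1%). With median-ratio rescaling these shares of all genes were 27.9%, 28.8% and 32.8%. From d4 to d6, 3 of the 7 fell in KO cells (19.9%). In Ctrl cells Pax6, Irx3 and Dbx1 rose in that step (22.6%) and Sox1 fell (21.5%). The call for Sox1 in Ctrl cells was lost when the median of each chromosome was subtracted, with a value of -0.38.

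Of the regional factors, Irx3, an Iroquois homeobox gene of the posterior and intermediate neural plate, went from near the floor to high levels in Ctrl cells. Ctrl libraries held 0.734, 1.20 and 1.82 TPM on d0, 34.2, 43.7 and 44.0 TPM on d4, and 105, 108 and 80.8 TPM on d6. KO libraries held 0.629, 0.685 and 0.743 TPM on d0, 4.27, 6.14 and 5.04 TPM on d4, and 3.87, 4.29 and 3.68 TPM on d6. The groups overlapped on d0 and were far apart on both later days, where no KO library held more than 6.14 TPM. In KO cells Irx3 did rise from d0 to d4, by 1.86 ± 0.17 (adjusted p = 8.40e-08), but the gain was 11.3% of the Ctrl gain. The change that followed in KO, -0.30 ± 0.17, was not called (adjusted p = 0.148), whereas Irx3 rose further in Ctrl by 1.25 ± 0.17 (adjusted p = 1.43e-05). The KO minus Ctrl difference was -2.76 ± 0.17 on d4 (adjusted p = 2.92e-09), the largest of the 7 on that day, and -4.31 ± 0.17 on d6 (adjusted p = 5.39e-12). The level in KO was 12.7% of Ctrl on d4 and 4.03% on d6.

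Gbx2, a homeobox factor of the anterior hindbrain that is also expressed in ESCs, was the member with the highest level on d0. The Ctrl libraries gave 26.7, 22.0 and 19.3 TPM on d0, 52.9, 60.9 and 70.5 TPM on d4, and 40.1, 41.0 and 39.3 TPM on d6. The KO libraries gave 29.6, 29.9 and 16.6 TPM on d0, 12.3, 13.8 and 18.6 TPM on d4, and 19.8, 15.5 and 12.9 TPM on d6. The genotypes moved in opposite directions from d0 to d4. Gbx2 rose in Ctrl by 1.403 ± 0.21 (adjusted p = 1.37e-05) and in KO it fell by 0.70 (SE 0.21, adjusted p = 0.00712). KO libraries of d0 and d4 overlapped, since KO d0 replicate 3 was lower than the other two. The fall was not called without KO d0 replicate 1 or 2 or KO d4 replicate 1 or 2, with values from -0.66 to -0.56, nor in the fit to the compared groups alone (-0.70). The KO minus Ctrl difference was -1.99 ± 0.21 on d4 (adjusted p = 1.04e-06) and -1.29 ± 0.21 on d6 (adjusted p = 5.50e-05), the smallest of the 7 on d6. The Ctrl difference between d6 and d0, 0.81 ± 0.21 (adjusted p = 0.00207), was not called without Ctrl d0 replicate 3 (0.70), with median-ratio rescaling (0.52), with quantile normalization (0.48) or with the chromosome medians subtracted (0.54). In KO cells the difference between d6 and d0, -0.60 ± 0.21 (adjusted p = 0.0162), was not called. It was called with median-ratio rescaling (-0.77), quantile normalization (-0.84), voom (-0.67) and the chromosome medians subtracted (-0.81), and also when KO d0 replicate 3 (-0.87) or replicate 1 of KO d6 (-0.75) was left out.

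Lhx2, a LIM homeobox factor of the forebrain and eye field, stayed at a low level in all groups. It reached 5 TPM only in the Ctrl d6 libraries, through which it passed the filter of the table. The filter thus favoured a lower level in KO d6. Ctrl values were 1.48, 2.25 and 2.28 TPM on d0, 3.75, 4.86 and 4.83 TPM on d4, and 5.97, 5.87 and 5.12 TPM on d6. KO values were 1.93, 2.18 and 1.74 TPM on d0, 1.43, 1.08 and 0.790 TPM on d4, and 1.29, 1.17 and 0.634 TPM on d6, with 14 to 29 reads per library on the 2 later days. The groups overlapped on d0, and from d4 on all KO libraries lay below all Ctrl libraries and below the KO libraries of d0. In Ctrl cells Lhx2 rose by 0.87 ± 0.17 from d0 to d4 (adjusted p = 0.000208). In KO the difference was -0.50 ± 0.17 from d0 to d4 (adjusted p = 0.0160, not called) and -0.55 ± 0.17 from d0 to d6 (adjusted p = 0.00761). The first of these was called with median-ratio rescaling (-0.61), quantile normalization (-1.12), the chromosome medians subtracted (-0.68), eBayes without trend (-0.50) and without KO d4 replicate 1 (-0.61). In Ctrl cells neither the rise from d0 to d4 (0.052) nor the difference between d6 and d0 (0.013, adjusted p = 0.942) was called with quantile normalization. The KO difference between d6 and d0 was not called without any 1 of the KO d0 libraries or without KO d6 replicate 2 or 3, with values from -0.61 to -0.40. It was not called either with a pseudocount of 5 (-0.21) or in the fit to the compared groups alone (-0.55). The KO minus Ctrl difference was -1.39 ± 0.17 on d4 (adjusted p = 5.05e-06) and -1.72 ± 0.17 on d6 (adjusted p = 2.57e-07). At levels near 1 TPM, the pseudocount of 1 makes these differences smaller than the ratio of the TPM means, which was 24.5% on d4 and 18.3% on d6.

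Dbx1, the homeobox gene of V0 progenitors, had the lowest KO minus Ctrl difference of all 10965 genes on d6. It passed the filter of the table only through the Ctrl d6 libraries, which favoured a low difference on that day. The Ctrl d6 libraries held 417, 351 and 380 TPM, from 2348, 2667 and 2735 reads. The KO d6 libraries held 0.452, 0.274 and 0.430 TPM, from 2, 1 and 2 reads. On d0, the Ctrl libraries held 1, 0 and 2 reads and the KO libraries 0, 0 and 0 reads. On d4, the Ctrl libraries held 2, 2 and 9 reads and the KO libraries 3, 0 and 3 reads. Dbx1 was thus near the limit of detection in 5 of the 6 groups and the most abundant of the 7 genes in the sixth. The difference on d6 was -8.11 ± 0.20 (adjusted p = 1.55e-14), and from d4 to d6 it rose in Ctrl by 7.89 ± 0.20 (adjusted p = 1.92e-13).

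Because TPM in this table includes 1 added read per gene, the ratio for Dbx1 was also taken from the reads. The KO d6 libraries held 5 reads in all and the Ctrl d6 libraries 7750, which at equal depth is 0.0675% of Ctrl (95% exact interval 0.0219% to 0.158%). This is a level 1482 times lower (635 to 4565). On d4 the totals were 6 and 13 reads, and their ratio of 62.2% had an interval of 19.4% to 175%. A difference on d4 was therefore not detectable at this depth. The intervals cover counting error only. The totals on d0, 3 and 0 reads, allow no statement on a difference.

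The levels of each gene were ordered over the 6 groups, as a description. Ctrl d6 was the highest group for Pax6, Zfp521, Irx3, Lhx2 and Dbx1, and Ctrl d4 for Sox1 and Gbx2. For Zfp521 the libraries of Ctrl d4 and Ctrl d6 overlapped, while for the other 6 genes the upper 2 groups of the order did not overlap. The place of KO d4 set the genes apart. It was the second highest group for Sox1, above Ctrl d6, with 73.1 ± 6.62 TPM (mean ± SD, n = 3) against 58.4 ± 6.07 TPM. It came next below the Ctrl groups of d4 and d6 for Pax6, Zfp521, Irx3 and Dbx1, but second from the bottom for Lhx2 and the lowest group for Gbx2, at 14.9 ± 3.28 TPM. For Gbx2 the 4 lowest groups overlapped with their neighbours, and for Dbx1 the 5 lowest did.

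**Figure D3:**
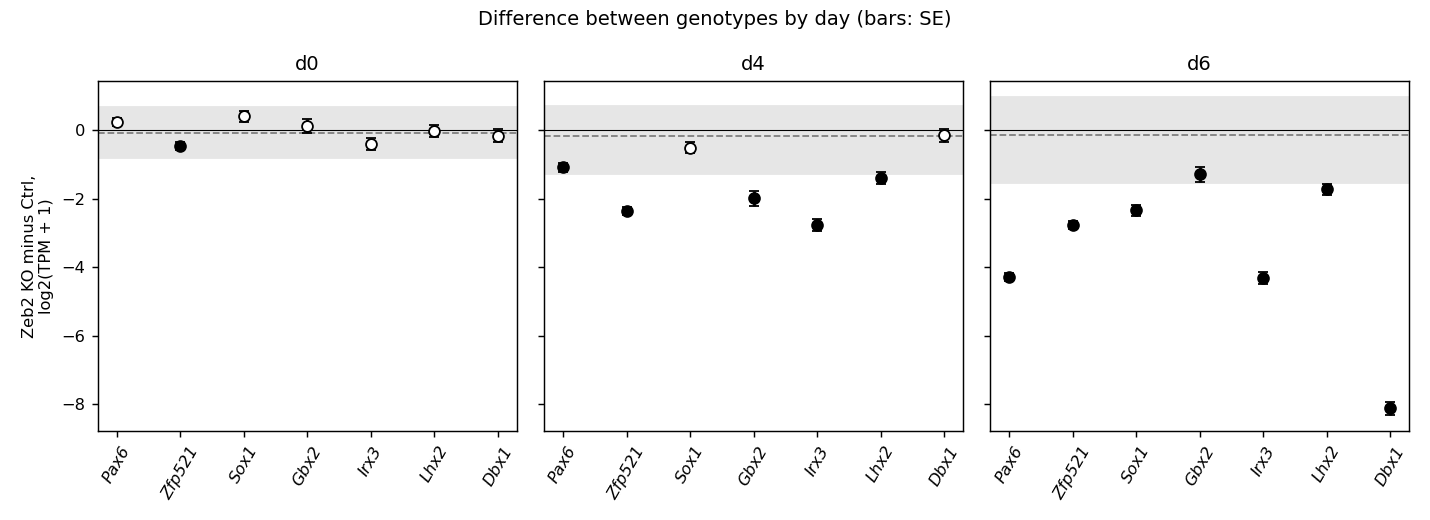
Zeb2 KO minus Ctrl difference on the log2(TPM + 1) scale for each factor on d0, d4 and d6. Points are limma estimates with their SE, filled where the adjusted p was below 0.01, the grey band holds the middle 90% of all 10965 genes and the dashed line is their median. The points leave the band for 4 of the factors on d4 and for all except Gbx2 on d6, where Dbx1 reaches -8.11.

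The step in which the genotypes parted was tested directly as a change of the KO minus Ctrl difference between days. From d0 to d4 the difference became lower for 6 of the 7 genes, against 22.5% of all genes (17.6% with median-ratio rescaling), by -2.37 ± 0.24 for Irx3 (adjusted p = 1.42e-06) and -2.11 ± 0.29 for Gbx2 (adjusted p = 3.00e-05). The other values were -1.89 ± 0.17 for Zfp521 and between -1.37 and -0.92 for Lhx2, Pax6 and Sox1. For Dbx1 the change was 0.00 ± 0.28. From d4 to d6 it became lower for Dbx1, Pax6, Sox1 and Irx3, against 6.29% of all genes. These changes were -7.97 ± 0.28 for Dbx1, -3.21 ± 0.17 for Pax6, -1.83 ± 0.23 for Sox1 and -1.55 ± 0.24 for Irx3. Dbx1 passed the filter of the table only through Ctrl d6, which favoured its change. For Gbx2 (0.70 ± 0.29, adjusted p = 0.103), Zfp521 (-0.42 ± 0.17, adjusted p = 0.0906) and Lhx2 (-0.34 ± 0.24, adjusted p = 0.359) the second change was not called. The Sox1 change from d0 to d4, -0.92 ± 0.23, was not called with voom (-1.001), with the chromosome medians subtracted (-0.39), or without Ctrl d0 replicate 1, Ctrl d4 replicate 3, KO d0 replicate 2 or KO d4 replicate 1 (-0.86 to -0.79). The Irx3 change in that step was not called with voom (-2.13).

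The 7 genes belong to families whose other members were analysed as a list of paralogues (genes of the Pax, SoxB1, Gbx, Irx, Lhx, Dbx and Zfp423 families), of which 11 of 21 could be analysed here. On d6, 10 of the 11 were lower in KO cells (34.3% of all genes) and 0 were higher (17.9%), with a median of -1.66. On d4 7 were lower (32.7%). The table held only genes with at least 5 TPM in 3 samples. By group means Irx1 and Pax3 reached that level only in Ctrl d6, so the filter favoured their lower level in KO d6. The same held for Zic1 and Wnt1 of the lists below, and Fgf8 reached it only in KO d6. Irx1 and Irx5, Iroquois genes like Irx3, were the most changed, at -4.98 (48.0 ± 7.62 TPM in Ctrl d6 and 0.556 ± 0.285 TPM in KO d6) and -3.53 (41.2 ± 8.44 and 2.62 ± 0.445 TPM). Irx2 and Irx4 were lower by smaller amounts, -1.66 and -1.35. Among the relatives of Pax6, the dorsal factors Pax3 and Pax7 were at -3.50 and -3.28. Gbx1 was at -2.93, Lhx1 at -1.64 and Zfp423, the closest relative of Zfp521, at -1.31. The SoxB1 genes parted. Sox3 was lower on d6 (-1.48) as Sox1 was, whereas Sox2, which pluripotent cells also need, did not pass the test on d6 (0.00, 538 ± 43.1 TPM in Ctrl and 538 ± 47.9 TPM in KO).

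Among 16 genes common to neural progenitors, which include Pax6, Sox1 and Zfp521, 15 could be analysed. Of these, 8 were lower and 1 was higher in KO cells on d4, and 14 were lower and 0 higher on d6, with a median of -2.77. Of all genes, 32.7% were lower and 12.7% higher on d4, and 34.3% and 17.9% on d6. Cdh2, the N-cadherin of the neural epithelium, was most changed at -4.87 (85.2 ± 2.22 TPM in Ctrl d6 and 1.96 ± 0.303 TPM in KO d6). Zic1 was at -4.66 (31.6 ± 10.2 and 0.251 ± 0.132 TPM). The summed level of the 15 genes was 1434 to 1628 TPM in the Ctrl d6 libraries and 728 to 777 TPM in KO d6. Sox2 alone held a mean of 538 TPM in both groups, and the sum was already 1177 to 1317 TPM in Ctrl d0 and 973 to 987 TPM in KO d0.

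The regional lists did not move as one. Their counts on d6 stand beside 34.3% of all genes called lower and 17.9% called higher, or 25.6% each with median-ratio rescaling. In the list of the ventral neural tube, to which Dbx1 and Irx3 belong, 7 of 10 genes were lower on d6 and 0 were higher, and Dbx1 and Irx3 themselves changed most. Nkx6-1, a factor of ventral progenitors, was at -2.44, while Nkx6-2 (-0.15) and Nkx2-9 (0.15) did not pass the test. In the dorsal list 6 of 9 were lower and 3 higher. Pax3 (-3.50) and Wnt3a (-3.45), a roof plate signal, were the most changed of those that were lower. Zic2 (1.31) and Zic5 (1.66), which the epiblast also expresses, were among those that were higher. In the list of midbrain and anterior hindbrain, which holds Gbx2, 5 of 10 were lower and 4 were higher. Wnt1, a signal of the midbrain and roof plate, was at 0.168 ± 0.0727 TPM in KO d6, against 24.9 ± 2.42 TPM in Ctrl d6 (-4.47). Fgf8, the signal of the midbrain-hindbrain boundary that gastrulating cells also make, was higher at 13.6 ± 1.21 TPM against 0.890 ± 0.419 TPM (2.97), as were Fgf17 and the Fgf target genes Spry1 and Spry2.

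Lhx2 and the genes of the forebrain and eye field gave few values, since 3 of 16 could be analysed. Otx2, a factor of the forebrain and midbrain that is also made by the epiblast and that represses Gbx2 in the embryo, was higher in KO cells on both later days. It was at 6.59 ± 1.29 TPM in Ctrl d4 and 95.5 ± 6.85 TPM in KO d4, and at 9.14 ± 0.964 TPM in Ctrl d6 and 161 ± 6.69 TPM in KO d6. The differences of 3.68 (adjusted p = 4.86e-11) and 4.00 (adjusted p = 4.38e-12) were opposite in sign to those of Gbx2 and Lhx2 on both days. Hesx1 did not pass the test on d6 (-0.29).

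**Figure D4:**
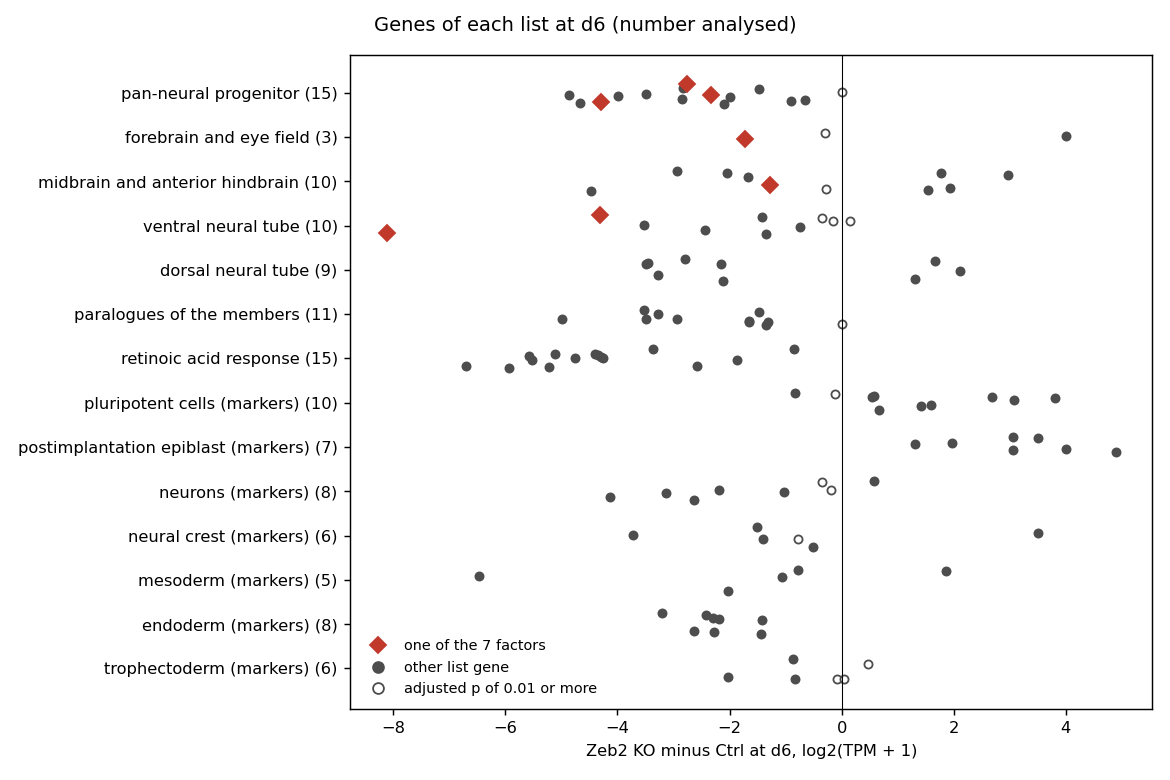
Zeb2 KO minus Ctrl difference on d6, on the log2(TPM + 1) scale, for each analysed gene of 14 lists, with the number of genes in parentheses. Red diamonds are the 7 factors, grey circles other genes, and open circles did not pass the test. All red diamonds and all 15 genes of the RA response lie left of 0, and all 7 epiblast markers lie right of it.

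RA was the inducing agent of the protocol. All 15 listed genes of the RA response were lower in KO cells on d4 and on d6 (32.7% and 34.3% of all genes), with medians of -3.46 and -4.40. Of the 7 factors, 5 were called lower on d4 and all 7 on d6. Sox1 (-0.51) and Dbx1 (-0.15) were not called on d4, where Dbx1 had too few reads for a difference to be detected. Stra8, an RA target, was at 242 ± 33.6 TPM in Ctrl d4 and 734 ± 52.5 TPM in Ctrl d6, and at 4.92 ± 1.12 and 6.10 ± 0.947 TPM in KO. For Hoxb1, a hindbrain gene with RA response elements, the Ctrl means of these days were 77.3 ± 4.81 and 109.8 ± 10.8 TPM, and those of KO 0.589 ± 0.101 and 0.802 ± 0.152 TPM. The summed level of the 15 genes was 1287 to 1642 TPM in Ctrl d4 and 113 to 127 TPM in KO d4, and 4473 to 4676 TPM in Ctrl d6 and 133 to 160 TPM in KO d6. Its part in the levels of the 7 factors was not tested.

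Markers of other cells also differed between the genotypes on the days when the 7 factors did. On d6, 34.3% of all genes were called lower and 17.9% higher, or 25.6% each with median-ratio rescaling. Of 10 markers of pluripotent cells, 8 were higher and 1 was lower in KO d6, and their summed level was 977 to 1088 TPM in Ctrl d6 and 4175 to 4576 TPM in KO d6. Utf1 and Tdgf1 changed most, at 3.08 and 3.81. All 7 markers of the postimplantation epiblast were higher in KO d6, with a summed level of 979 to 1146 TPM against 149 to 158 TPM, and Fgf5 was at 99.0 ± 14.5 TPM against 2.44 ± 0.979 TPM (4.89). Of 8 neuronal markers 5 were lower and 1 was higher, of 6 neural crest markers 4 were lower and 1 was higher, and of 6 trophectoderm markers 3 were lower. The neural crest marker that was higher, Foxd3, is also 1 of the 7 epiblast markers. Other lists share genes too, such as Foxa2 of the endoderm and ventral neural tube lists. With so few markers, a count of 3 of 6 is not set apart from the share of all genes. The summed level of the trophectoderm markers overlapped, at 1048 to 2056 TPM in KO d6 and 1074 to 1658 TPM in Ctrl d6. All 8 endoderm markers were lower, with a summed level of 29.1 to 45.0 TPM in KO d6 and 171 to 261 TPM in Ctrl d6. Of 5 mesoderm markers 4 were lower and 1 was higher, with sums of 17.1 to 23.3 TPM and 154 to 210 TPM. The filter of the table bears on these counts too. By group means Afp (endoderm), Foxc2 (mesoderm), Sox9 (neural crest), Neurod4 (neurons) and Gata3 (trophectoderm) reached 5 TPM only in Ctrl d6. Their lower level in KO d6 was favoured by the filter. On d4 the sums of the pluripotent markers were 2952 to 3714 TPM in Ctrl and 5469 to 5800 TPM in KO. The part of these cells in the levels of the 7 factors was not tested.

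For each factor, the genes whose log2(TPM + 1) was most like it over the 18 libraries were found, as a description. The libraries fall into 6 groups, so a high Pearson r means mainly that the group means were alike. Dbx1 was most like Foxe3 (r = 0.995), a forkhead gene of the lens, which was at 64.7 TPM in Ctrl d6 and between 0.341 and 0.536 TPM in the other 5 groups, then Col12a1 and 1700011H14Rik. Irx3 was most like Gprin1 (r = 0.992), Dchs1 and Dlk1, and Zfp521 like Mmp15 (r = 0.987), Akt1 and Efnb1. Efnb1, an ephrin, was at 72.8 TPM in Ctrl d4 and 8.26 TPM in KO d4. Pax6 was most like Stox2 (r = 0.979), Megf9 and Sema5b, and Stox2 also went up in KO d4 (13.4 TPM) and down in KO d6 (4.35 TPM). Sox1 was most like Nsmaf (r = 0.977), Cdca7l and Tia1. Lhx2 was most like Zmiz1 (r = 0.976) and Neo1. Gbx2 had the lowest values, with Fam193a (r = 0.956), Syvn1 and Gpr161.

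Among the 7 factors themselves r was between 0.379 and 0.961 over the 18 libraries. It was highest for Irx3 with Zfp521 (0.961) and with Pax6 (0.936), and lowest for Dbx1 with Sox1 (0.379) and with Gbx2 (0.383). Sox1 was also little like Gbx2 (0.445) and Lhx2 (0.457), the 2 genes that had no gain in KO d4.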

How the data were processed

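The authors sequenced single reads of 36 bp, mapped them to GRCm38 with TopHat2 2.0.13, counted them per gene with featureCounts 1.4.6 and deposited TPM for the genes that passed their filter, which included a minimum of 5 TPM in 3 samples and removal of the 20% least variable genes. The deposited table also holds 3 columns of a variability score per gene, which were not used. Of 11046 rows, 81 repeated identifiers were left out, which left 10965 genes. Reads per gene were recovered from the TPM as whole numbers (100% of values), after 1 added read was subtracted. They gave the depth and the reads of Dbx1. log2(TPM + 1) was fitted in limma 3.58.1 (R 4.3.3, eBayes with trend) with 6 group means over 18 libraries, and p-values were adjusted by Benjamini-Hochberg over all genes. The threshold was 0.01. In simulated data with log2 changes of -1.5 and -3 at d6, the fit recovered 100% and 100% of the changed genes with 4 false calls over 10965 genes. Only 100 genes of each size were changed, none with few reads, and every gene had the same spread. In the data 5731 genes were called on d6, so these rates are not the error rates of the real calls. Every value was recomputed without each library in turn and with 10 other choices, namely pseudocounts of 0.1 and 5, voom on the recovered reads, a replicate block, chromosome medians subtracted, eBayes without trend, a fit to the compared groups alone, quantile normalization, median-ratio rescaling and a filter at a mean of 10 TPM. Members and lists were chosen with earlier results of these data known. Named genes are the 7 factors, Zeb2, the 2 genes of each list with the largest called difference on d6 and the 3 genes most like each factor. A few genes that this rule or the lists hold are not reported here. Other list genes were named after their values were seen, as were the label markers. Positions came from GENCODE M21 and promoters from RefSeq. Zfp521 was not matched there. Python 3.11.15, pandas 2.3.3 and matplotlib 3.10.9 were used for summaries and figures.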

Additional observations from a re-analysis of the deposited data

Results flagged for a closer look

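The difference between the genotypes itself changed between days for 6 of the 7 factors from d0 to d4 and for 4 of the 7 from d4 to d6, each by limma's test of that change (adjusted p below the threshold over all genes). All were towards a lower difference, which was called for 22.5% of all genes in the first step and 6.29% in the second. From d0 to d4 the KO minus Ctrl difference on the log2(TPM + 1) scale changed by -1.33 for Pax6, -1.89 for Zfp521, -0.92 for Sox1, -2.11 for Gbx2, -2.37 for Irx3 and -1.37 for Lhx2. From d4 to d6 it changed by -3.21 for Pax6, -1.83 for Sox1, -1.55 for Irx3 and -7.97 for Dbx1. Pax6, Sox1 and Irx3 were in both sets, and Dbx1 was in the later set only. Dbx1 passed the filter of the table only through Ctrl d6, which favoured its change. From d0 to d4, the Sox1 change was not called in 6 of 28 other settings and the Irx3 change in 1. With 3 libraries per group, single libraries were not searched for outliers.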

How the results depend on the processing

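Each count of called factors was recomputed in 28 other settings. All 7 factors were lower in KO on d6 in each setting in which they were tested. For Lhx2 and Dbx1 this was favoured by the filter of the table, which they passed only through Ctrl d6. Of the called counts, the d0 count of 1 became 0 with a pseudocount of 5, in the fit to the compared groups alone and with voom, and was 0 to 1 when 1 library was left out. With quantile normalization it was again 1, but that gene was Pax6, called higher (0.49), and not Zfp521. The count of 3 called between d6 and d0 in KO was 2 to 5 without 1 library. It held 2 higher and 1 lower gene, and with quantile normalization 1 higher and 3 lower. The count of 7 called higher between Ctrl d6 and d0 was 5 with quantile normalization and 6 with median-ratio rescaling or the chromosome medians subtracted. The cause was not tested.

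Differences that did not pass the test changed sign in some settings. With quantile normalization, Zfp521 was at -0.033 between Ctrl d6 and d4 and -0.37 between KO d6 and d0, Gbx2 at -0.00999 between KO d6 and d4, and Lhx2 at 0.14 between KO and Ctrl on d0 and -0.039 between Ctrl d6 and d4. Dbx1, at a few reads, was at 0.18 between KO and Ctrl on d4, -0.27 between Ctrl d4 and d0 and -0.13 between KO d6 and d0. With the chromosome medians subtracted, Irx3 was at 0.13 between KO d6 and d4, Lhx2 at 0.076 between genotypes on d0 and Dbx1 at 0.0096 on d4. Lhx2 on d0 was also at 0.015 with median-ratio rescaling and 0.069 with voom. Dbx1 was at 0.22 between KO d6 and d4 with voom, and its genotype difference changed by -0.0086 from d0 to d4 with a pseudocount of 5.

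Without 1 library, the difference between KO d6 and d0 was -0.18 to 0.060 for Pax6, and that between Ctrl d6 and d4 was -0.025 to 0.036 for Zfp521. Between the genotypes it was -0.018 to 0.39 for Gbx2 and -0.15 to 0.053 for Lhx2 on d0 and -0.27 to 0.10 for Dbx1 on d4. Between KO d6 and d4 it was -0.045 to 0.27 for Gbx2, -0.16 to 0.10 for Lhx2 and -0.26 to 0.017 for Dbx1. The change of the genotype difference from d0 to d4 was -0.12 to 0.24 for Dbx1.

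With the replicate number as a block, 1, 5 and 7 factors were called lower in KO on d0, d4 and d6, and the block changed no call of a factor. Same-numbered libraries of different groups deviated together weakly (r from -0.09 to 0.34, median 0.15, 29 of 45 pairs above 0.1), those with different numbers less so (median -0.055, 1 of 90 pairs above 0.1), and 15 of 18 libraries correlated best with their own number. This is a hint from the data that a number marks a shared experiment. No source used here says so and not every pair was above 0.1, so the fit without the block was kept.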
